A study of Mus musculus with 2 samples.

Results

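The genes described here are 8 mouse Toll-like receptors (Tlr1, Tlr2, Tlr3, Tlr4, Tlr6, Tlr7, Tlr9 and Tlr13) and the adaptors Myd88 and Ticam1. These 10 genes were chosen by symbol, after the gene identifiers without their version had been mapped to GENCODE mouse symbols, and were found among 43346 identifiers, 21474 of them protein-coding. Their levels were read in cells labelled as megakaryocyte-erythroid progenitors, which are bone marrow progenitors of red cells and platelets. The series is an ENCODE data set of poly(A) RNA-seq with 1 group of 2 biological replicates. Both came from primary cells of adult female C57BL/6J mice aged 5 weeks, described in the labels as CD34-, with no genetic change or treatment listed. The labels give the 2 replicates separate biosamples but the same donor identifier, and do not say whether they were separate animals or pools, so the spread between them may be partly technical. There was no second group, and the smallest p that 2 libraries allow in an exact sign test is 0.5, so every value below is a description.

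Toll-like receptors are membrane proteins that bind molecules of microbes through a leucine-rich ectodomain and signal through a cytoplasmic TIR domain. TLR1, TLR2, TLR4 and TLR6 act at the cell surface on lipopeptides and lipopolysaccharide, whereas TLR3, TLR7, TLR9 and TLR13 sense nucleic acids in endosomes. MyD88 carries the signal of most of them to IRAK kinases and NF-kappaB. TRIF, the product of Ticam1, serves TLR3 and endosomal TLR4 and leads to IRF3 and type I interferon. The pathway is best known in macrophages, dendritic cells and granulocytes, and early blood progenitors have also been described to respond to its ligands.

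Levels are given as TPM, transcripts per 1000000, which corrects for length and can be compared between genes, together with expected counts, the reads the authors' quantification assigned to a gene. The libraries held 79539457 and 65305321 expected counts in replicates 1 and 2. A count of 0 allows up to 0.0377 and 0.0459 counts per 1000000 of the library (CPM) at the limit of 3 counts, which covers counting error only. The cell label was set beside 7 marker lists. All 12 erythroid and megakaryocytic markers stood at a TPM of 1 or more in both libraries and added to 1093 and 1590 TPM. The 8 granulocyte progenitor markers, among them Mpo, Elane and Prtn3, added to 32368 and 17777 TPM, more than the erythroid and megakaryocytic list in both libraries. The marker lists thus leave the purity of the labelled cells in doubt. Which cells carried each transcript was not tested. In such bulk RNA, fewer cells of a type and less RNA per cell cannot be told apart.

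In TPM, the adaptors stood above every receptor. The lower adaptor of each library, Ticam1, was 8.15-fold above the highest receptor, Tlr9, in replicate 1 and 8.03-fold above the highest receptor, Tlr2, in replicate 2 (mean 8.09 ± 0.0828 SD, n = 2). The 2 adaptors together gave 59.8 and 34.8 TPM, and the 8 receptors together gave 5.44 and 4.73 TPM. The median receptor was at 0.425 TPM in replicate 1 and 0.055 in replicate 2. In posterior mean TPM, a second estimate in the authors' tables, the fold was 1.49, with Tlr13 as the highest receptor from 4 and 8 counts. The authors' TPM intervals of Tlr13 also spanned those of Ticam1 in both libraries. Of the 10 genes, 4 (Myd88, Ticam1, Tlr9 and Tlr2), or 40%, reached a TPM of 1 in both libraries. Among all protein-coding genes, 46.9% did, a share near that of these 10. Tlr7 reached it in replicate 1 alone and Tlr4 in replicate 2 alone.

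**Figure D1:**
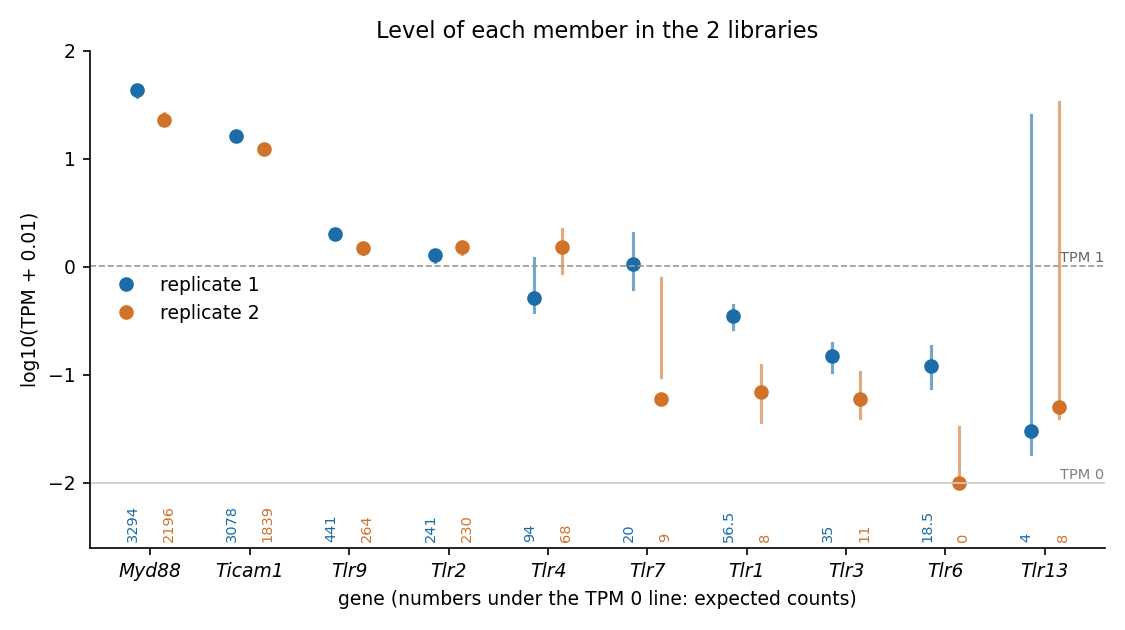
Level of each gene in each library as log10(TPM + 0.01), ordered by mean TPM; vertical lines are the authors' TPM intervals and the small numbers are expected counts. Myd88 and Ticam1 lie above 12 TPM in both libraries, Tlr9 and Tlr2 between 1.27 and 2.00 TPM, and the other 6 receptors are below 1 TPM in at least 1 library.

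Myd88 had 43.5 TPM in replicate 1 and 22.6 TPM in replicate 2 (33.1 ± 14.8 SD, n = 2), from 3294 and 2196 expected counts. Its gene, ENSMUSG00000032508.8, lies on the minus strand at chr9:119335934-119341411 of GRCm38. It ranked 3415th by mean TPM among the 21474 protein-coding genes. Ticam1 had 16.3 and 12.2 TPM (14.3 ± 2.89 SD, n = 2), from 3078 and 1839 expected counts. This gene, ENSMUSG00000047123.8, lies on the minus strand at chr17:56269319-56276786 and ranked 5406th. Myd88 was above Ticam1 in both libraries, with separate intervals. The log2 ratio of Ticam1 to Myd88 was -1.15 ± 0.37 (SD, n = 2) on the scale of TPM + 0.01. Without the correction for length, at 41.4 and 33.6 CPM for Myd88 and 38.7 and 28.2 CPM for Ticam1, this log2 ratio was -0.18.

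A single short transcript set much of the Myd88 value. The authors' tables divide Myd88 into 3 transcripts. Myd88-201, the coding transcript of 1960 bases, had 24.2 and 21.7 TPM. Myd88-202, annotated as coding but only 379 bases long, had 18.8 TPM in replicate 1 and 0 in replicate 2. In replicate 1 it took 297 of the 3294 counts, or 9.03%, and 43.2% of the TPM, since TPM divides by length. Myd88-203, a retained-intron transcript of 2458 bases, had 0.52 and 0.93 TPM. Taken on Myd88-201 alone, the level was 23.0 ± 1.79 TPM (SD, n = 2), and replicate 1 was 1.12-fold above replicate 2, where the gene's TPM gives 1.92-fold. On this basis Ticam1 was still below Myd88 in both libraries, with a log2 ratio of -0.70, which no longer passes the 2-fold rule used for pairs.

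The start of Myd88-202 lies inside a neighbouring gene. Acaa1a, a peroxisomal thiolase gene, runs on the opposite strand at chr9:119339676-119350299 and had 73.3 and 67.9 TPM. It shares 276 of the 379 exon bases of Myd88-202 (72.8%), against 223 of the 1960 of Myd88-201 (11.4%). No source used here says whether counting used strand. Whether reads of the 2 genes in the shared bases were kept apart is therefore not known. The part of Acaa1a in the Myd88-202 value was not tested.

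**Figure D2:**
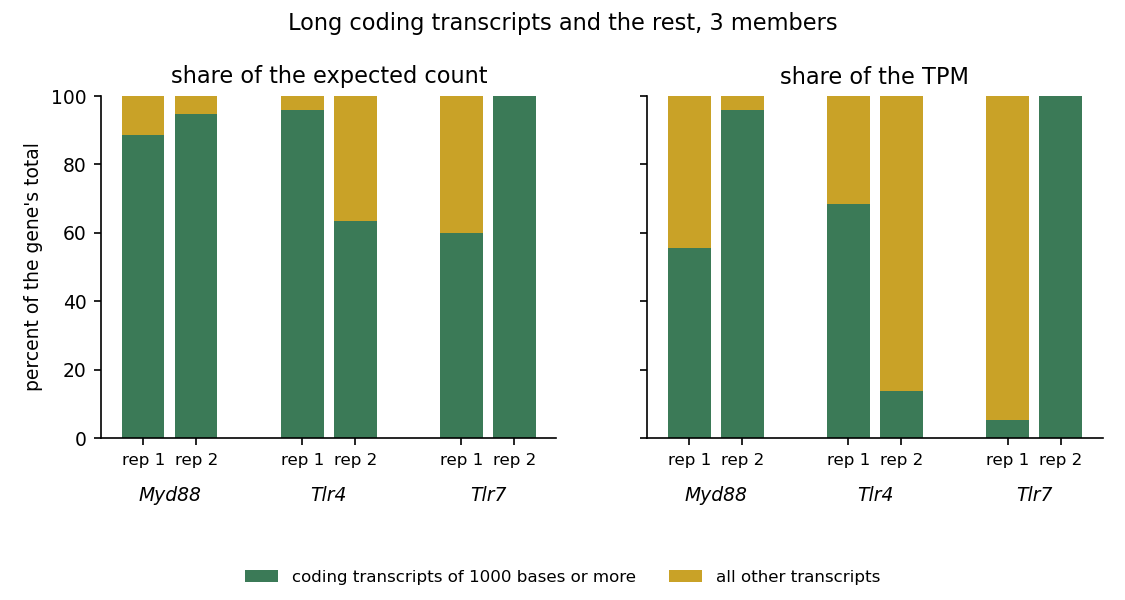
Percent of the expected count (left) and of the TPM (right) of Myd88, Tlr4 and Tlr7 held by coding transcripts of 1000 bases or more (green) and by all other transcripts (yellow), in each library. The other transcripts took 11.4% of the Myd88 counts but 44.4% of its TPM in replicate 1, and 36.4% of the Tlr4 counts but 86.2% of its TPM in replicate 2.

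The promoters of the 4 genes at a TPM of 1 or more in both libraries are shown because they contrast in CpG content and in letters of the kind bound by Ets-family and Sp factors. They are RefSeq windows on GRCm38.p6 from 250 bases before to 50 bases after a start site, and 8 of the 10 genes matched that table. Capitals mark GAGGAA (the letters of a PU.1-type site), CCGGAA (Ets-type) and GGGCGG (GC box), searched on both strands, so that TTCCTC is GAGGAA on the other strand.
Myd88, chr9:119339969-119340268, minus strand: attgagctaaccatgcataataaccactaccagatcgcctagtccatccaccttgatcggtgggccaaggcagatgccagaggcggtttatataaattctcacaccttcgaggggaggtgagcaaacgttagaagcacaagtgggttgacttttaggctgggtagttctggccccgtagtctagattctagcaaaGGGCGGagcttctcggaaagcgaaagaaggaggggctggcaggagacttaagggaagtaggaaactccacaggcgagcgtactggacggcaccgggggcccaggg
Ticam1, chr17:56276718-56277017, minus strand: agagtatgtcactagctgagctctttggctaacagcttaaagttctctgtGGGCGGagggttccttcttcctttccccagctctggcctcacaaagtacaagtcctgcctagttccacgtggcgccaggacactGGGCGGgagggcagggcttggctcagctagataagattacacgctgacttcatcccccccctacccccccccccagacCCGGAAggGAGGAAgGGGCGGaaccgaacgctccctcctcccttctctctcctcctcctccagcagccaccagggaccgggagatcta
Tlr2, chr3:83841559-83841858, minus strand: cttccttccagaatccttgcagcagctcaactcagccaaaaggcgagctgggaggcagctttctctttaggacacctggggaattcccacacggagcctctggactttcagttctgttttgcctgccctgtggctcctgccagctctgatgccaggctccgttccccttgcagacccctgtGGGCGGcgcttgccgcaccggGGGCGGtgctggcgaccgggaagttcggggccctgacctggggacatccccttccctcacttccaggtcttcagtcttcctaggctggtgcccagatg
Tlr9, chr9:106222348-106222647, plus strand: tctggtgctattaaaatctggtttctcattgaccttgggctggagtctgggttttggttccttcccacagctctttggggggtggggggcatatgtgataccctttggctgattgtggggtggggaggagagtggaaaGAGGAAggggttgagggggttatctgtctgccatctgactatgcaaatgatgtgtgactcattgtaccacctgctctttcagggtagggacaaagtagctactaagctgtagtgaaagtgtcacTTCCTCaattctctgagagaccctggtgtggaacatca
The Myd88 window has 1 GC box and 13 CpG dinucleotides. The Ticam1 window has 3 GC boxes, 1 PU.1-type and 1 Ets-type match and 10 CpG. The Tlr2 window, whose RefSeq start lies 159 bases from the GENCODE start, has 2 GC boxes and 11 CpG. The Tlr9 window has 2 PU.1-type matches, no GC box and 0 CpG. Of all 32851 promoter windows, 28.3% hold GAGGAA, 14.9% CCGGAA and 35.7% GGGCGG, the median window has 7 CpG and 5.43% have none. A match describes letters in the window and not a bound site.

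Tlr2, the shared partner of the lipopeptide receptors, was the highest cell-surface receptor by mean TPM. Its level was 1.27 TPM in replicate 1 and 1.52 in replicate 2 (1.40 ± 0.177 SD, n = 2), from 241 and 230 expected counts. The gene, ENSMUSG00000027995.10, lies at chr3:83836272-83841767 on the minus strand and has 1 transcript with counts. The ratio of its CPM in replicate 1 to replicate 2 was 0.860, with a 95% exact counting interval from 0.715 to 1.04, so the libraries did not differ beyond counting error.

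The receptors that pair with TLR2 were far below it. Tlr1, whose product binds triacylated lipopeptides with TLR2, had 0.34 and 0.06 TPM from 56.5 and 8 counts. Tlr6, whose product binds diacylated lipopeptides with TLR2, had 0.11 TPM from 18.5 counts in replicate 1 and 0 counts in replicate 2. Both were below Tlr2 in each library with separate intervals, and the log2 ratio of Tlr1 to Tlr2 was -1.87 in replicate 1 and -4.45 in replicate 2. Tlr1 was 5.80-fold higher per total count in replicate 1 than in replicate 2 (95% exact counting interval 2.73 to 14.0). Against the limit of 3 counts in replicate 2, the Tlr6 CPM of replicate 1 was 5.06-fold higher. The exact counting interval is for the rounded counts themselves, with 0 in replicate 2. It starts at 3.61 and has no upper end.

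Values of Tlr1 and Tlr6 are not fully separate. Tlr1 (ENSMUSG00000044827.6, chr5:64924679-64933563) and Tlr6 (ENSMUSG00000051498.4, chr5:64952031-64960097) are neighbours on the minus strand. An expected count is fractional where a read fits more than 1 place, and in replicate 1 the counts were 56.5 and 18.5. The transcripts have 229 bases exactly in common, at chr5:64925537-64925765 in Tlr1 and chr5:64953828-64954056 in Tlr6 (GRCm38), inside the coding exon of each. This stretch is shown because a read that falls wholly within it cannot be assigned to either gene.
Tlr1 and Tlr6 shared stretch, minus strand: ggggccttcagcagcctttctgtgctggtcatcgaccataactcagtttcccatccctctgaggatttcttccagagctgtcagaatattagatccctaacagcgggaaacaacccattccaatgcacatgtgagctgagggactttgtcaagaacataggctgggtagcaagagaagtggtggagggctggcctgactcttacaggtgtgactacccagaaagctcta
Among the 36 pairs of the 8 receptors and Tlr8, the next longest exact stretch was 18 bases, between Tlr4 and Tlr6, and the shortest of the pairs' longest stretches was 10 bases.

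Tlr4, the lipopolysaccharide receptor, had 0.51 TPM in replicate 1 and 1.51 in replicate 2 (1.01 ± 0.707 SD, n = 2). Its counts ran the other way, at 94 and 68. The gene, ENSMUSG00000039005.9, lies on the plus strand at chr4:66827584-66930284. A processed transcript of 504 bases, Tlr4-203, held 0.16 and 1.3 TPM from 3.87 and 24.8 counts. The coding transcript of 4077 bases, Tlr4-201, had 0.35 and 0.21 TPM from 90.1 and 43.2 counts. Per total count, the gene was 1.13-fold higher in replicate 1, with a counting interval from 0.822 to 1.57 that spans equality.

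Partners of TLR4 were unequally present. Cd14, which hands lipopolysaccharide to the receptor, had 7.30 and 3.03 TPM, above Tlr4 in both libraries with separate intervals. Ly96 (MD-2), the subunit that binds the lipid within the TLR4 complex, had 0.49 TPM from 16 counts and 0.04 TPM from 1 count. Lbp, the lipopolysaccharide-binding protein, had 54.3 and 30.4 TPM. Cd180 and Ly86 (MD-1), which form a TLR4-related surface complex, had 1.90 and 1.33 TPM, and 11.5 and 6.70 TPM.

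Tlr9, the sensor of unmethylated CpG DNA, was the endosomal receptor with the highest level. It had 2.00 TPM in replicate 1 and 1.5 in replicate 2 (1.75 ± 0.354 SD, n = 2), from 441 and 264 counts. The gene, ENSMUSG00000045322.10, lies on the plus strand at chr9:106222598-106226883 and ranked 9548th among protein-coding genes. Its CPM was 1.37-fold higher in replicate 1, with a counting interval from 1.17 to 1.6. In the order of mean TPM, Tlr9 and Tlr2 did not differ beyond their spread, since their order was not the same in the 2 libraries.

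Tlr7, the receptor for single-stranded RNA, had 1.05 TPM in replicate 1 and 0.05 in replicate 2 (0.55 ± 0.707 SD, n = 2), but from only 20 and 9 counts. Of these, 8 counts of replicate 1 were given to Tlr7-206, a processed transcript of 261 bases, which held 94.8% of the TPM. The coding transcript Tlr7-203 of 3468 bases had 0.05 TPM in each library. The gene, ENSMUSG00000044583.9, lies on the minus strand at chrX:167304929-167330558. The CPM ratio of 1.82 had a counting interval from 0.794 to 4.55, so no difference between libraries was detectable at this depth.

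Tlr3, the receptor for double-stranded RNA, had 0.14 and 0.05 TPM (0.095 ± 0.0636 SD, n = 2) from 35 and 11 counts. It lies on the minus strand at chr8:45395665-45411080 (ENSMUSG00000031639.7), and its CPM was 2.61-fold higher in replicate 1 (counting interval 1.3 to 5.70). Tlr13, which recognises bacterial ribosomal RNA, had 0.02 and 0.04 TPM (0.03 ± 0.0141 SD, n = 2) from 4 and 8 counts. It lies on the plus strand at chrX:106143204-106160493 (ENSMUSG00000033777.3). All of its counts went to the coding transcript of 4060 bases. Its posterior mean TPM was nevertheless 8.40 and 11.3. The authors' interval for a transcript of 119 bases, Tlr13-202, reached 25.2 and 33.7 TPM although it had 0 counts.

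In the whole order of mean TPM, from Myd88 through Ticam1, Tlr9, Tlr2, Tlr4, Tlr7, Tlr1, Tlr3 and Tlr6 to Tlr13, only the first 2 steps separated neighbours in both libraries. Myd88 was above Ticam1 and Ticam1 above Tlr9. Each later pair of neighbours had overlapping intervals in at least 1 library or changed order. The 8 receptors thus form a low range from 0.03 to 1.75 mean TPM with no further order beyond the spread, apart from pairs that are not neighbours, such as Tlr2 above Tlr1 and Tlr6. The rule compares neighbours only. Tlr13 had intervals from 0.0084 to 25.2 TPM in replicate 1 and from 0.0299 to 33.7 in replicate 2. These span the intervals of Ticam1 in both libraries and of Myd88 in replicate 2. By its intervals, Tlr13 was therefore not separate from the adaptors.

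The 4 other mouse receptors were also low. None reached a TPM of 1 in both libraries. Tlr12, an endosomal receptor for a protozoan profilin, had 0.81 and 1.38 TPM from 163 and 222 counts. Tlr8 had 24 counts in replicate 1 and 0 in replicate 2. Tlr5, the flagellin receptor, had 6 and 8 counts, and Tlr11 had 0 and 2.

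Most genes whose products fold, move or assist the receptors stood above the receptors themselves. Of 9 receptor partners and chaperones, 7 reached a TPM of 1 in both libraries, with a median of 9.09 ± 3.38 TPM (SD, n = 2). Unc93b1, the chaperone that takes nucleic acid sensors from the endoplasmic reticulum to endosomes, had 304 and 181 TPM. The log2 ratio of Tlr9 to Unc93b1 was -7.07 ± 0.24 (SD, n = 2). Coding transcripts of 1000 bases or more gave 161 and 97.2 TPM of the Unc93b1 total. Cnpy3 and Hsp90b1, which fold most Toll-like receptors, had 305 and 258 TPM, and 63.0 and 74.7 TPM. The long coding transcripts of Cnpy3 gave 80.9 and 79.5 TPM. Cd36, a co-receptor of TLR2 with TLR6, was the lowest of the list at 0.04 and 0.01 TPM.

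Endosomal trafficking and processing genes, which shape the compartment where TLR3, TLR7, TLR9 and TLR13 signal, had 7 of 9 measured members at 1 TPM or more, with a median of 19.4 ± 1.48 TPM. Lamp1, a lysosomal membrane protein, had 298 and 192 TPM, and Rab7, a late endosomal GTPase, 52.9 and 51.5. Among the proteases that can cleave the receptors' ectodomains, Ctsb had 29.3 and 20.8 TPM. Ctss had 3.07 and 2.00 TPM, Ctsl 0.97 and 1.29 and Lgmn 0.99 and 0.93.

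Tirap and Ticam2, the adaptors that bridge receptors to MyD88 and TRIF, were lower than Myd88 and Ticam1. Tirap, which brings MyD88 to TLR2 and TLR4 at the membrane, had 3.68 and 3.87 TPM and its log2 ratio to Myd88 was -3.05 ± 0.72 (SD, n = 2). Ticam2, which bridges TLR4 to TRIF, had 3.23 and 2.28 TPM and its log2 ratio to Ticam1 was -2.37 ± 0.06. Sarm1, a TIR protein with NAD-cleaving activity, had 1 and 10 counts. Pik3ap1 (BCAP) and Sigirr, which temper the signal, had 38.8 and 30.5 TPM, and 18.9 and 18.3 TPM, both above Ticam1 in each library. Of the 10 genes of this list, which includes the interleukin receptors that also use MyD88, 5 reached 1 TPM in both libraries, and the median was 1.83 ± 0.240 TPM.

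Downstream of MyD88, 13 of 14 kinases, ubiquitin ligases and partners reached 1 TPM in both libraries, with a median of 12.6 ± 0.0283 TPM. Irak1 had 398 and 486 TPM, but its coding transcripts of 1000 bases or more gave 71.1 and 65.7. Irak4, the kinase that MyD88 recruits first, had 15.4 and 12.9 TPM, of which long coding transcripts gave 2.18 and 2.02. The log2 ratio of Irak1 to Irak4 was 4.96 ± 0.38 (SD, n = 2). Traf6, the ubiquitin ligase of this arm, had 3.10 and 3.21 TPM, and Peli3 was lowest at 0.15 and 0.20.

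All 11 genes listed for the TRIF arm, a list that also holds Irf5 and Irf7, reached 1 TPM in both libraries, with a median of 14.9 ± 0.926 TPM. Irf3, the transcription factor at the end of this arm, had 91.5 and 98.3 TPM. Irf7, which acts after TLR7 and TLR9, had 80.0 and 47.0. On coding transcripts of 1000 bases or more, Irf3 had 9.69 and 5.70 TPM and Irf7 23.0 and 16.2. Tbk1, the kinase that phosphorylates IRF3, was lowest at 3.44 and 2.78.

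Inhibitors of the pathway had the highest median of the 9 lists, 50.6 ± 3.61 TPM, with 11 of 12 at 1 TPM or more. Nfkbia, the inhibitor that holds NF-kappaB in the cytoplasm, had 257 and 487 TPM. Dusp1, a phosphatase of MAP kinases, had 389 and 184 TPM. Tnip1, a partner of the deubiquitinase A20, had 113 and 111. Cyld, another deubiquitinase, was lowest at 0.72 and 0.66.

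Genes that Toll-like receptor signals induce in macrophages were split. Of 15, 6 reached 1 TPM in both libraries, and the median was 0.355 ± 0.0495 TPM. Ccl3 and Cxcl2, chemokine genes, had 77.8 and 60.1 TPM, and 37.3 and 47.4 TPM. Tnf had 13.0 and 21.1. Il12b, Ifnb1 and Nos2 had 0 counts in both libraries, and Il6 had 6 and 0 counts.

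**Figure D3:**
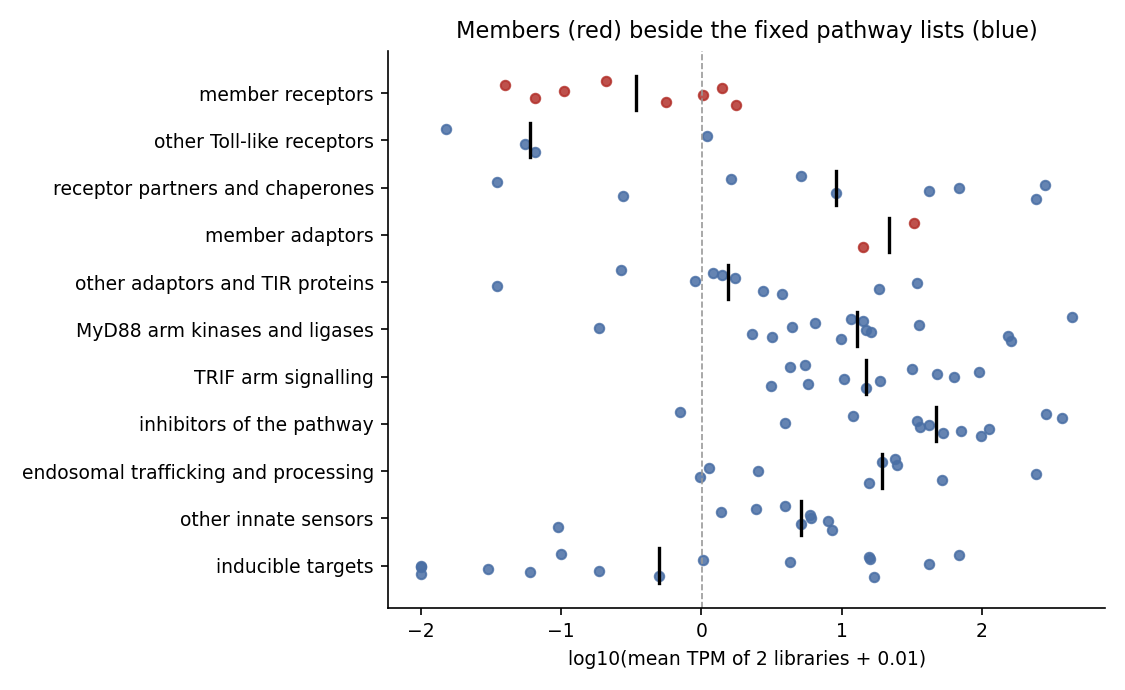
Mean TPM of the 2 libraries as log10(TPM + 0.01) for each gene (points) of the 8 receptors and 2 adaptors (red) and of the fixed pathway lists (blue), with list medians as black bars and 1 TPM as a dashed line. The receptors lie from 0.03 to 1.75 TPM, while the medians of the MyD88 arm and TRIF arm lists are 12.6 and 14.9 TPM.

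Over all 9 lists, 68 of 93 measured pathway genes (73.1%) reached 1 TPM in both libraries, beside 46.9% of protein-coding genes. Their median was 6.40 ± 0.141 TPM, against 0.710 ± 0.0566 for protein-coding genes and 0.240 ± 0.262 for the 8 receptors. The lists were chosen with results of these data known, and no test was made on them.

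Between the replicates, 6 of the 10 genes had counts enough for a comparison with TMM-scaled log2 CPM. Ticam1 was 1.43-fold, Tlr9 1.43-fold, Myd88 1.28-fold and Tlr4 1.18-fold higher in replicate 1, and Tlr2 was 0.897 of its replicate 2 level. Tlr3, at 2.47-fold, was more than 2-fold higher in replicate 1, and none was more than 2-fold higher in replicate 2. Of all 13546 genes past the count filter, 3.18% and 3.22% were. With 6 genes, 1 past the fold says nothing about the group. Tlr1, Tlr6, Tlr7 and Tlr13 did not pass the filter. Without it, Tlr1 and Tlr6 were also more than 2-fold higher in replicate 1.

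Markers of other blood cells differed between the libraries as well. Of all 13546 genes past the filter, 6805 were higher in replicate 1 and 6741 in replicate 2. Of 11 monocyte and macrophage markers past the filter, 9 were higher in replicate 1, and the list of 12 added to 505 and 230 TPM. All 9 B cell markers past the filter were higher in replicate 1, and the 10 added to 213 and 136 TPM. Granulocyte progenitor markers were higher in replicate 1 for 8 of 8, and erythroid and megakaryocytic markers in replicate 2 for 10 of 12. Of the dendritic markers, 3 of 10 reached 1 TPM, the list added to 31.1 and 45.6 TPM, and Cd209d, Xcr1 and Klk1 were at 0 in both libraries. The 8 T and NK cell markers added to 50.2 and 31.8 TPM, and the 8 late neutrophil markers to 1708 and 1902. Of the 7 late neutrophil markers past the filter, 6 were higher in replicate 1, but only 2 by more than 2-fold, Retnlg by 6.15-fold and Mmp9 by 4.74-fold. S100a8, Ngp and S100a9 were 1.23-fold, 1.03-fold and 1.02-fold higher in replicate 1, and Ltf also stayed below 2-fold. Camp, the highest of the list by mean TPM, was 1.17-fold higher in replicate 2. The list thus showed no common shift. The part of these cells in the receptor values was not tested.

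**Figure D4:**
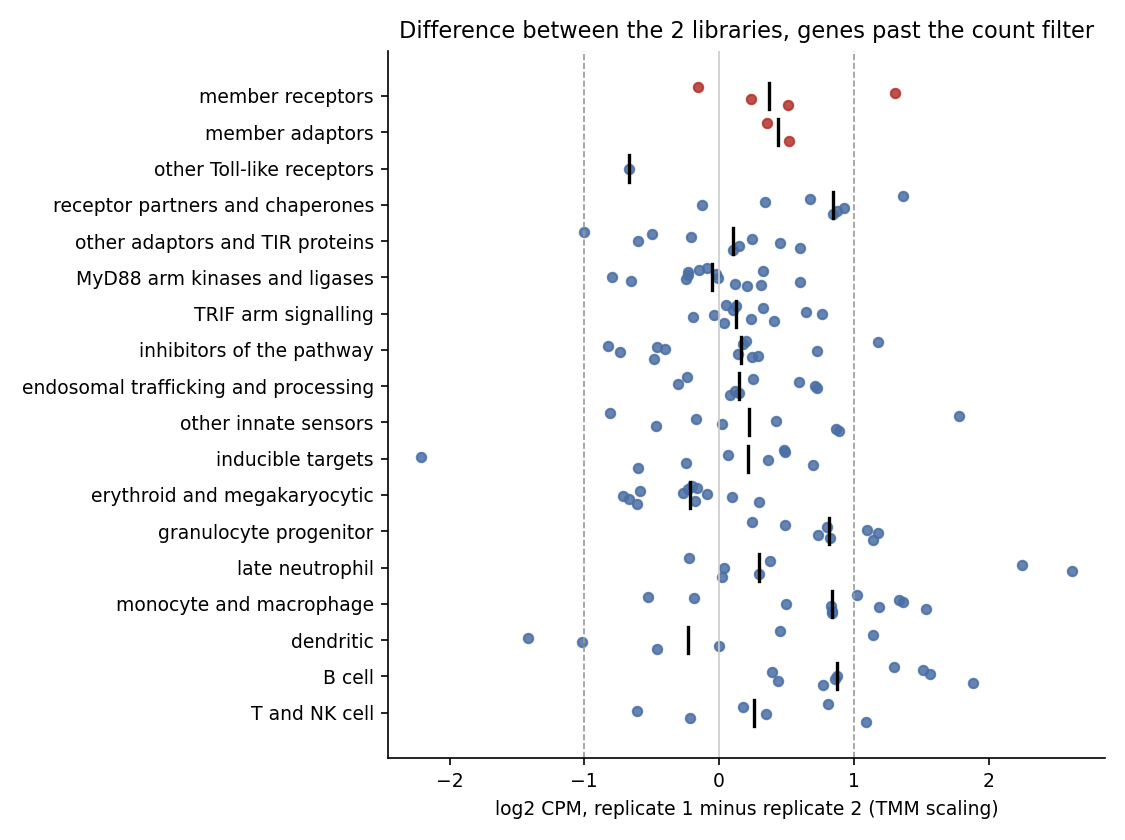
Difference in TMM-scaled log2 CPM, replicate 1 minus replicate 2, for genes past the count filter (points; red, receptors and adaptors; blue, pathway and marker lists), with list medians as black bars and dashed lines at 2-fold. Of the 6 receptor and adaptor genes, 5 are above 0, and the monocyte, B cell and granulocyte progenitor medians are 0.84, 0.88 and 0.81.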

How the data were processed

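Poly(A) RNA-seq libraries of 1 group (2 biological replicates, numbered in the labels) were analysed. Per the labels the reads were placed on mm10, and the deposited text files name GENCODE M4. Aligner, quantification program, versions and strand setting: not given in the sources used here. Column names are those RSEM writes.

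Per the file headers, the values per gene and per transcript are the authors' expected count, an estimate that can be fractional. They also deposited TPM, which corrects for effective length and sums to 1000000 in a library, and FPKM, its counterpart per 1000000 fragments. Percent columns deposited for transcripts hold the share within a gene. The TPM intervals of the authors, of unstated level, were made for the posterior mean: the TPM of Tlr6 and Tlr7 in replicate 2 lay outside them.

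Of 43346 identifiers, 42462 matched GENCODE M21, which gave symbols, types and GRCm38 coordinates; 884 did not. CPM is the count per 1000000 of the library total. Differences between libraries used rounded expected counts, edgeR 4.0.16 (R 4.3.3), TMM scaling, filterByExpr and a prior count of 2, checked on simulated data, with DESeq2 1.42.0 as an alternative. Log2 ratios of TPM used a pseudocount of 0.01. Of 14 fixed pairs, 9 had the same sign in both libraries, a mean above 2-fold and separate intervals, the rule for calling a pair. Counting intervals are exact binomial at 95%. Python 3.11.15 with pandas 2.3.3, scipy 1.17.1, numpy 2.4.6 and matplotlib 3.10.9 did the rest.

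The 10 genes, the pairs, the 9 pathway lists (95 genes, 93 with values) and the 7 marker lists were chosen with earlier results of these data known. Of each list, genes could be named first by rank (3 highest, 2 lowest by mean TPM and the 2 farthest apart between libraries), then any member. Alternatives were other units, thresholds, filters, scalings, pseudocounts, each library alone and long coding transcripts.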

Additional observations from a re-analysis of the deposited data

How the results depend on the processing

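The fold of the lower adaptor over the highest receptor was 8.09 and stayed between 8.03 and 8.15 in single libraries. It was 8.11 in FPKM and 8.09 on coding transcripts of 1000 bases or more, an alternative chosen after seeing the data, as were all those for this fold. Neither could move it beyond rounding. FPKM is proportional to TPM within a library, and all counts of Ticam1, Tlr9 and Tlr2 are on long coding transcripts. The fold was 6.97 in CPM, without length correction, and 1.49 in posterior mean TPM, where Tlr13 is the highest receptor through its transcript of 119 bases. Detected genes were 4 in the main rule, 2 at a TPM of 5 (Myd88 and Ticam1), 5 at 0.5 and 5 in each single library. Genes more than 2-fold apart between libraries were 1 in the main rule and with DESeq2 size factors, 3 without the count filter (Tlr1, Tlr3 and Tlr6, all higher in replicate 1), and 5 on log2(TPM + 0.01), where Tlr7 joined them and Tlr4 was higher in replicate 2. Called pairs were 9 of 14, 8 with a pseudocount of 1 and 9 to 11 in single libraries. Without the interval condition they were 13 in TPM and 11 in CPM. The calls on long coding transcripts also left out that condition. They restricted only the 10 genes, and the other genes of the pairs, such as Unc93b1, Irak1 and Irak4, kept their whole TPM. Ticam1 against Myd88 lost its call in CPM (-0.18), on long coding transcripts (-0.70) and without replicate 1 (-0.89), Tlr1 against Tlr6 with a pseudocount of 1 (0.18), and Tlr4 against Cd14 without replicate 1 (-1). None of the 9 called pairs' ratios changed sign. Only CPM and, for the pairs with Myd88, long coding transcripts could have changed one. The calling rule asks for the same sign in both libraries, and the other settings keep each library's sign. Of the 5 other pairs, Tlr3 against Tlr7 went from -1.41 to 0.53 in CPM and 0.66 on long coding transcripts, from 9 to 35 counts per library. Of 50 alternative values of single levels, 47 lay within the SD of the 2 libraries. Each library alone lies within it by arithmetic. Long coding transcripts cannot change a gene that has counts on no other transcript. The 47 are therefore no measure of stability. Tlr2 in FPKM (1.14), Tlr4 on long coding transcripts (0.28) and Tlr13 in posterior mean TPM (9.85) moved further. No paired analysis was possible because there is 1 group. Counts of 0 to 94 per library limit every statement on Tlr1, Tlr3, Tlr4, Tlr6, Tlr7 and Tlr13, and values of short transcripts rest on few reads.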

Other observations

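Sensors outside the Toll-like family were compared with the receptors by level alone. Of 9 measured genes for other innate sensors, 8 reached a TPM of 1 in both libraries, with a median of 5.31 ± 0.771 TPM (SD, n = 2). Beside this, 2 of the 8 Toll-like receptors and 46.9% of protein-coding genes reached it. Tmem173 (STING), the receptor for cyclic dinucleotides, had 10.9 and 6.30 TPM in replicates 1 and 2. Nlrp3, the sensor of an inflammasome, had 6.44 and 9.52 TPM, and Mavs, the mitochondrial adaptor of RNA helicase sensors, 5.85 and 6.16. Ifih1 (MDA5), a cytosolic sensor of double-stranded RNA, had 6.49 and 5.43 TPM, where the endosomal receptor Tlr3 had 0.14 and 0.05. Coding transcripts of 1000 bases or more gave 1.68 and 1.31 of the Ifih1 TPM. For Ddx58 they gave 0.52 and 0.70 of 1.06 and 1.69 TPM, and for Clec7a 0 of 3.47 and 1.42 TPM. On these transcripts alone, Ddx58 and Clec7a thus fell below 1 TPM, and the other sensors that had reached it did not. Nod2, a sensor of bacterial cell wall fragments, was the lowest at 0.14 and 0.03.

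Cxcl1, a neutrophil chemokine gene, stood apart from the other inducible targets between the libraries, with 17 counts in replicate 1 and 74 in replicate 2, or 4.63-fold higher in replicate 2 on the TMM scale. Cd14, Dusp1 and Clec7a were more than 2-fold higher in replicate 1, at 2.57-fold, 2.26-fold and 3.43-fold. Of the 79 pathway genes past the count filter, these and Il18r1, at 2.01-fold higher in replicate 2, were the ones more than 2-fold apart: 3 higher in replicate 1 and 2 in replicate 2, beside 3.18% and 3.22% of all 13546 genes past the filter. Counts this small do not set the pathway genes apart from the rest.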
